A study of Mus musculus with 4 samples.

Results

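The cells described here are the 10% of Diff_MK cells with the highest combined level of Efemp1, Tmem176a, Tmem176b and Stmn2. They were chosen by their own RNA counts. Each kept cell was scored by the mean over the 4 genes of log1p(UMIs per 10000), where UMIs are unique molecular identifiers, the molecule counts of droplet sequencing. The top 10% of kept cells by this score were taken as members, which gave 691 of 6912 kept Diff_MK cells and of 14087 kept cells in both RNA libraries. The middle 50% by the same score, 3456 cells, served as the comparison. The levels of the 4 genes are therefore a consequence of the choice, and are given below as a description.

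The study combined single-cell RNA libraries with heritable DNA tags in MK, a cultured line of mouse keratinocytes, the main cell type of the epidermis. All cells carried an inducible tagging construct that also makes a fluorescent protein, all had Dox as their treatment label, and all were sorted as GFP-positive before droplet capture. The groups are MK and Diff_MK, each with 1 RNA library and 1 tag library of the same cells. Both have the same line, cell type, treatment and growth medium with 15% serum in their labels, and the labels do not say what Diff means. Since the line is a culture, it has no dermis or immune cells around it.

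The 4 genes have different known roles. Efemp1 encodes fibulin-3, a secreted glycoprotein of the extracellular matrix. Tmem176a and Tmem176b are neighbouring genes for membrane proteins of the MS4A superfamily, best known from dendritic cells and other immune cells. Stmn2 encodes a stathmin that binds tubulin and is best known from growing axons. In the epidermis, basal keratinocytes with Krt5 and Krt14 divide, spinous cells above them make Krt1, Krt10 and Krtdap, and granular cells make loricrin (Lor) and small proline-rich (Sprr) proteins for the cornified envelope. Krt6a, Krt16 and Krt17 are keratins of wounded and cultured epidermis.

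The RNA libraries held 7569 cell barcodes and 105961628 UMIs for Diff_MK and 7780 cell barcodes and 116732898 UMIs for MK. Kept cells had 1000 or more genes and at most 15% mitochondrial UMIs, which removed 657 Diff_MK and 605 MK barcodes. Across them 9 cell barcodes occurred in both libraries, 1 of them in a member. Members had a median of 16493 UMIs, 3937 genes and 6.64% mitochondrial UMIs. Middle cells had 14568 UMIs, 3516 genes and 6.07%, and the lowest 25% had 11485 UMIs, so depth moved with the score. With 1 library per group there is no replicate, so no p-value is given, and the 95% intervals below cover counting error only.

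Members had scores from 0.641 to 1.73, with a median of 0.792. The 5 cells just inside the threshold scored 0.6413 to 0.6421 and the 5 just outside 0.6405 to 0.6412. A cell just inside had 17486 UMIs with 0 of Efemp1, 1 of Tmem176a, 2 of Tmem176b and 5 of Stmn2, and the cell just outside with 12021 UMIs had 0, 1, 2 and 2. The threshold thus cuts through a continuous range and rests on a few molecules per cell. A score of 0 was found in 2526 kept cells, of which 798 fell among the middle cells by the order of their barcodes. The same threshold was reached by 442 of 7175 MK cells (6.16%).

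Tmem176b stood at 252.6 CPM in members (UMIs of the gene in every 1000000 UMIs of the set, 95% interval 243.6 to 261.9), 163.7 in the next 15% of cells, 48.3 in middle cells and 0 in the lowest 25%. A Tmem176b UMI was present in 98.3% of members, and in 81.3% after cells were thinned to 7500 UMIs. Tmem176a stood at 187.5 CPM in members, 121.2 in the next 15% and 39.5 in middle cells, with a UMI in 95.1% of members. Both genes thus marked nearly every member and stepped down band by band. Stmn2 stood at 230.6 CPM in members (222.0 to 239.5), 60.6 in the next 15% and 13.5 in middle cells. Its step from the next 15% to the members was steeper than that of the Tmem176 genes, and 78.0% of members held a Stmn2 UMI against 13.2% of middle cells.

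Efemp1, the first gene in the working name of these cells, was the weakest carrier of the score. It stood at 28.9 CPM in members (25.9 to 32.2) and 6.50 CPM in middle cells, and only 33.1% of members held an Efemp1 UMI, or 18.8% of thinned members. Efemp1 made up 5.88% of the members' summed score and was the largest term in 11 of 691 members. Tmem176b was the largest term in 275 members, Stmn2 in 223 and Tmem176a in 182. Neither Efemp1 nor Stmn2 was found in 98 members (14.2%), while 161 (23.3%) held UMIs of all 4 genes, beside 4 of 3456 middle cells (0.116%). By these counts the members are Tmem176a, Tmem176b and Stmn2-high cells, of which a part also has Efemp1. Over whole libraries the 4 genes differed by less than 2-fold, with 61.6 CPM of Tmem176a in Diff_MK and 51.1 in MK, and 43.0 CPM of Stmn2 in Diff_MK and 50.5 in MK.

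**Figure D1:**
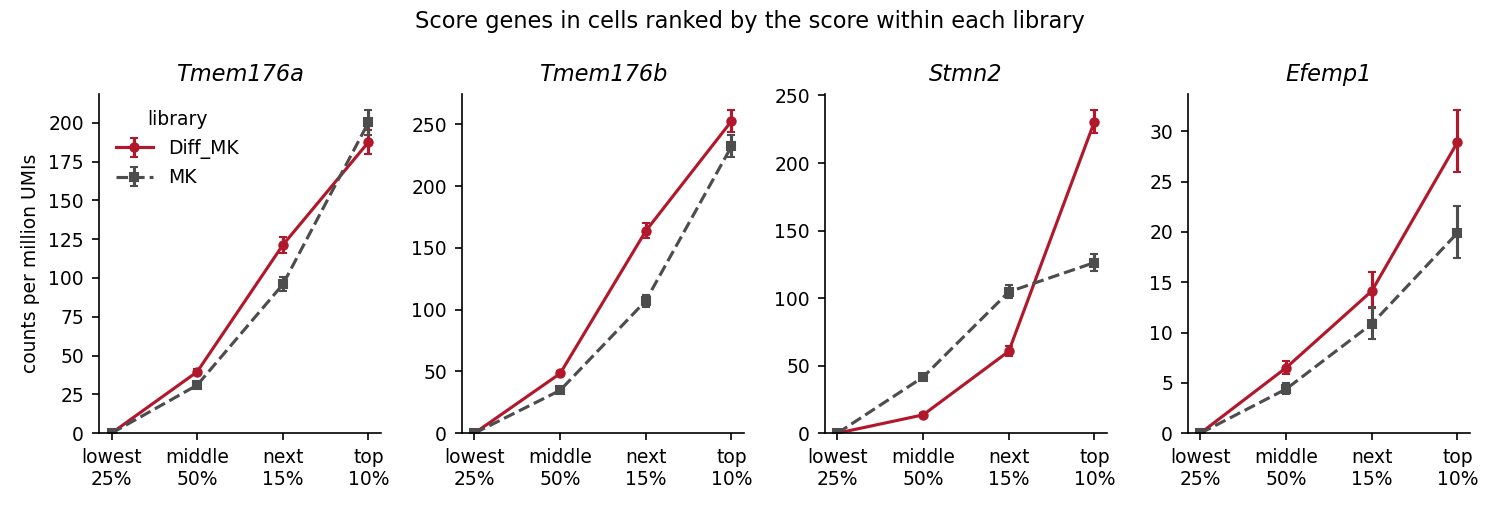
Summed level in CPM of the 4 score genes in cells ranked by the score within each library, in the lowest 25%, middle 50%, next 15% and top 10%, with 95% counting intervals, for Diff_MK (circles) and MK (squares). Stmn2 rises steeply into the top 10% of Diff_MK (60.6 to 230.6 CPM) and less in MK (104.6 to 126.3 CPM), and all steps follow from the ranking itself.

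In the mouse genome (GRCm38, the mm10 assembly, GENCODE vM21) Efemp1 lies on the plus strand at chr11:28853204-28926743 and Stmn2 on the plus strand at chr3:8509360-8561606. Tmem176a lies on the plus strand at chr6:48840919-48847071 and Tmem176b on the minus strand at chr6:48833818-48841496. The Tmem176 genes point away from each other and their annotated 5′ ends overlap, so a single stretch of DNA holds the start sites of both, 346 bases apart in RefSeq. The RefSeq promoter window of Tmem176a is shown because these are the members' most shared genes. It spans 300 bases at chr6:48841233-48841532, plus strand, 250 before to 50 after the start site, and the 155 bases in capitals also belong to the window of Tmem176b.

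Tmem176a promoter: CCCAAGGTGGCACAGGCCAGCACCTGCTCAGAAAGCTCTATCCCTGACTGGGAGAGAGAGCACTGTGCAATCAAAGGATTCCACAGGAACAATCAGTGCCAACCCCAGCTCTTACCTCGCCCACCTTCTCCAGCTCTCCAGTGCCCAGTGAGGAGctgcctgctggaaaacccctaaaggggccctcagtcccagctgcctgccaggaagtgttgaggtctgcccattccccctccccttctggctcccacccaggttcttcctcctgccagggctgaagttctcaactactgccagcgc

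This window had a GC content of 59.7%. On either strand it held no TATA box (searched as TATAAA, present in 14.2% of 27025 promoter windows of the same length) and no AP-1 motif (TGANTCA, present in 7.93%). It also held no CCAAT box (present in 37.9%) and no GC box (GGGCGG, present in 35.9%), and 2 E-boxes (CANNTG, present in 72.1%). These matches are a description of letters in this window only.

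How far the 4 genes travel together was described by ranking cells on the other score genes and reading the gene left out. The 4 genes were picked together with earlier results of the Diff_MK library known, so higher values there follow in part from that choice and are no independent evidence. In Diff_MK, the top 10% of cells by a score without Stmn2 had 114.9 CPM of Stmn2 against 29.9 in the middle cells, a ratio of 3.84 (3.57 to 4.14). Ranked without both Tmem176 genes, Tmem176a was 2.28-fold (2.12 to 2.44) and Tmem176b 2.37-fold (2.23 to 2.51) higher in the top 10%. Ranked without Efemp1, Efemp1 was 2.53-fold higher (2.14 to 2.98). In Diff_MK each gene had a higher level in cells ranked high on the others.

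In MK the pattern differed. Ranked without Stmn2, the top 10% of MK cells had 38.0 CPM of Stmn2 against 55.3 in the middle cells, a ratio of 0.687 (0.621 to 0.759). Ranked without the Tmem176 genes, Tmem176a stood at 0.888 (0.809 to 0.974) and Tmem176b at 0.908 (0.831 to 0.990) of the middle cells. That ranking rests on Efemp1 and Stmn2, and 5066 of 6912 Diff_MK cells (73.3%) and 4524 of 7175 MK cells (63.1%) held neither. Its middle cells were therefore mostly cells with a score of 0, ordered by barcode, to a larger extent in Diff_MK. Efemp1 was 1.99-fold higher (1.62 to 2.44) in MK cells ranked by the other 3 genes. Over thinned cells, the correlation of log1p counts of Tmem176a and Stmn2 was 0.180 in 6277 Diff_MK cells and -0.0407 in 6838 MK cells, while that of Tmem176a and Tmem176b was 0.359 and 0.373. These are weak correlations in sparse counts. Stmn2 was thus higher in cells ranked by the other score genes in the Diff_MK library, where the genes were picked, and lower in the MK library, a difference that could not be tested with 1 library each.

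Beyond the score genes, more genes were lower than higher in members by 2-fold or more. Of 7609 genes at 10 CPM or more in either set, 65 were at least 2-fold lower in members (0.854%) and 13 were at least 2-fold higher (0.171%), among which are the 4 score genes. Krt17 led the named genes on the higher side, while Krt15, Krt16, Krt14 and Krt6a were lower, and Sprr1a, Lgals7 and Krt15 led the lower side. Because every gene was read in the cells that the score chose, these ratios are a description of the members.

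Krt17, a keratin of wounded and cultured epidermis, stood at 1100 CPM in members, 654.9 in the next 15%, 348.9 in middle cells and 204.5 in the lowest 25%, a ratio of members to middle cells of 3.15 (3.08 to 3.23). Tmsb4x, which encodes the actin-sequestering thymosin beta 4, followed the same order with 6440, 4645, 3324 and 2301 CPM and a ratio of 1.94. Arhgdib stood at 222.2 against 102.1 CPM (2.18-fold), and Sparc, a matrix glycoprotein, at 495.1 against 251.6 CPM (1.97-fold). All of these stepped down from band to band of the score in both libraries.

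The other genes at the high end were Fn1 (fibronectin, 1.93-fold), Cxcl1 (a neutrophil chemokine, 1.92-fold), Akap12 (a kinase anchoring protein, 1.91-fold), Plscr1 (1.88-fold), Id1 (an inhibitor of basic helix-loop-helix factors, 1.85-fold), Serpinb9 (1.81-fold), Igfbp3 (1.77-fold) and Tnnt2 (1.74-fold). In MK, Fn1 was at 1.03 (0.910 to 1.17) and Akap12 at 1.07 (1.005 to 1.14), so the high end of Diff_MK was not shared for these genes. Krt17, Tmsb4x and Cxcl1 had ratios of 1.43, 1.65 and 1.61 in MK. Genes past 2-fold but below the level set for naming included Casp4, which encodes an inflammatory caspase and was chosen after its values were seen, at 14.5 against 3.15 CPM (4.61-fold, 3.70 to 5.73), and Fas, a death receptor and p53 target, at 13.1 against 5.70 CPM (2.30-fold).

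On the low side, Sprr1a, a cornified envelope precursor, stood at 9.64 CPM in members, 83.0 in middle cells and 269.5 in the lowest 25%, a ratio of 0.116 (0.0955 to 0.140). Lgals7, the epidermal galectin-7, stood at 166.1 against 931.7 CPM, a ratio of 0.178 (0.170 to 0.187). Krt15, a basal keratin found in hair follicle stem cells, stood at 139.6 against 756.4 CPM, a ratio of 0.185 (0.176 to 0.194). These 3 genes had their lowest level in members and their highest in the lowest 25%. The further genes at the low end were Psca (0.249), Defb1 (a beta defensin, 0.274), Krt16 (0.281), Ndrg1 (0.319), Ctla2a (0.349), Ly6d (0.352), Krtdap (0.366), Gadd45g (0.381) and Clu (clusterin, 0.388). The low end therefore mixes suprabasal genes with Krt15, a basal one, and parts Krt16 from Krt17. Keratin and Sprr genes have close copies, among which the counting could divide reads.

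**Figure D2:**
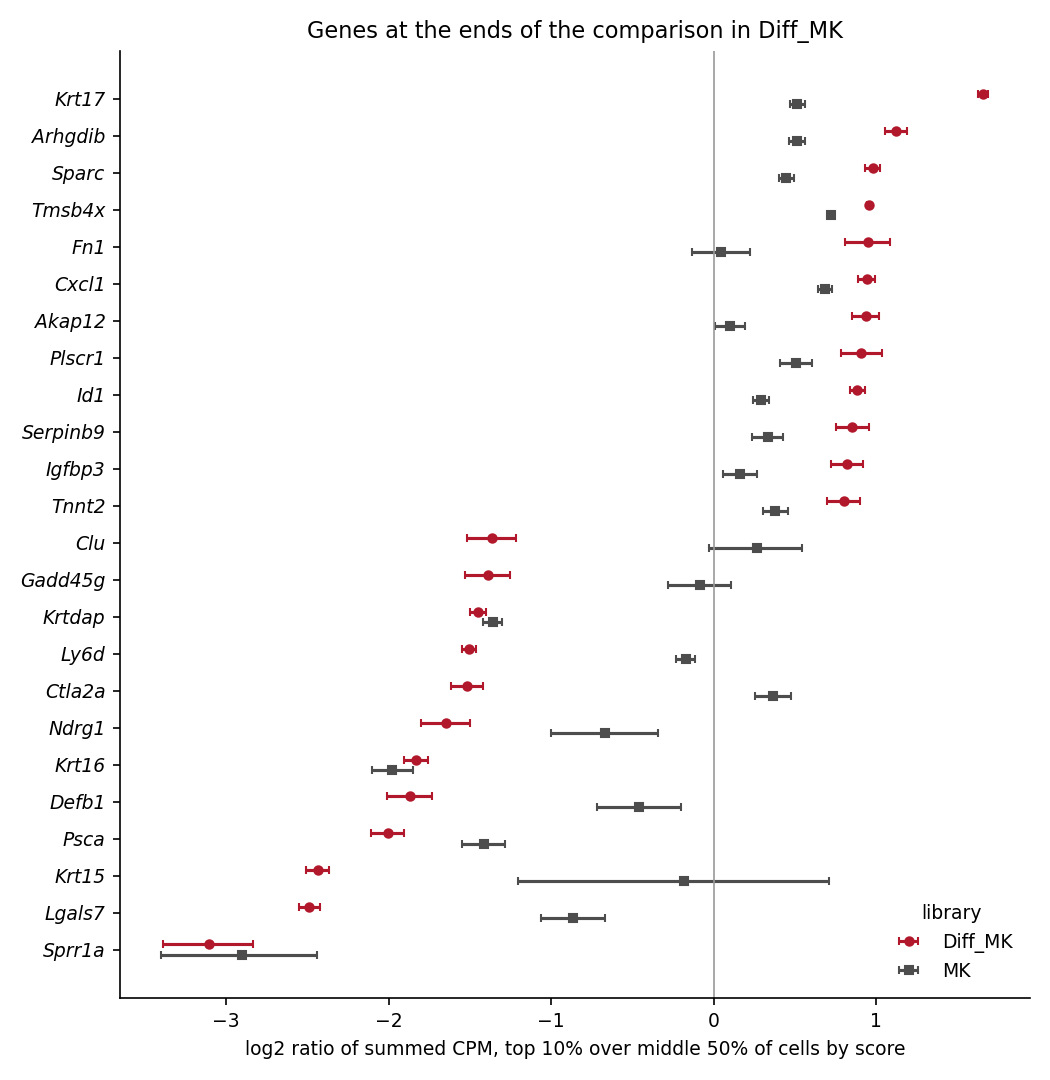
Log2 ratio of summed CPM between the top 10% and the middle 50% of cells by score, for the 12 highest and 12 lowest genes of Diff_MK (circles), with the same genes in MK (squares) and 95% counting intervals. Sprr1a, Krt16, Psca and Krtdap are far below 0 in both libraries, whereas Ctla2a is below 0 in Diff_MK (-1.52) and above 0 in MK (0.36).

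The same score in MK cells gave a top 10% of 718 cells, which were compared with 3587 middle MK cells. Of 7662 genes, 10 were at least 2-fold higher (0.131%, the 4 score genes among them) and 18 at least 2-fold lower (0.235%). Both libraries shared 13 lower genes, which are 20% of the Diff_MK list and 72.2% of the MK list. They included Cdsn, Fabp4, Krt16, Krtdap, Lor, Mt3, Mt4, Psca, Sprr1a, Sprr2e, Sprr2h and Taf9b, of which Cdsn, Krtdap, Lor and the Sprr genes belong to the spinous and granular layers. Casp4 (3.15-fold in MK) and Fas (2.44-fold in MK) were the only genes besides the score genes to be 2-fold higher in both. Krt15 and Lgals7 stood at 1.17 and 36.4 CPM in middle MK cells, so that most of the Diff_MK range of Krt15 had no counterpart in MK. Across 7368 genes the log2 ratios of the libraries had a Pearson correlation of 0.446 and a Spearman correlation of 0.291, over genes, which are not independent.

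The gene lists put these differences in order. A list's median log2 ratio was taken over its genes at 5 CPM or more in either set, beside 0.09 for all 9188 such genes in Diff_MK, of which 65.7% were higher in members, and -0.02 for 9232 in MK, of which 45.2% were higher. Cornification was low in the highest-scoring cells of both libraries. All 16 measured genes of the granular and cornified envelope list were lower in members, and 11 were past 2-fold. The median was -1.35. In MK all 13 measured genes were lower, with a median of -1.04. Among them Crct1 stood at 1.19 against 12.5 CPM in Diff_MK, and Sprr1b, the most abundant, at 721.8 against 1200 CPM.

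All 10 measured spinous genes were lower in members, 5 of them past 2-fold, with a median of -1.08, and 7 of the 9 measured in MK were lower as well, with a median of -0.63. Mt4, a metallothionein of stratified epithelia, stood at 6.82 against 46.1 CPM. Of 9 stress keratins and alarmins only 2 were higher in members, and the median was -1.69. Krt6a stood at 1566 against 3150 CPM (0.497) and S100a9, an alarmin subunit, at 1.79 against 16.8 CPM. The basal list did not move as a whole, with 10 of 17 genes higher and a median of 0.12, although Krt14 stood at 7717 against 12772 CPM (0.604).

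Metabolic lists were lower in Diff_MK members. All 22 measured genes of cholesterol synthesis were lower, and 5 were past 2-fold. The median was -0.77. Fdps, which makes farnesyl diphosphate, stood at 171.9 against 353.0 CPM (0.487), and Mvd, a mevalonate pathway decarboxylase, at 25.7 against 53.2 CPM. In MK 15 of 21 of these genes were lower and the median was -0.11. Of 25 hypoxia and glycolysis genes 23 were lower, with a median of -0.44, and Adm (adrenomedullin) stood at 11.7 against 38.0 CPM. In MK that median was -0.03.

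Cell cycle genes were slightly higher in Diff_MK members and not in MK. Of 30 S phase genes 29 were higher, with a median of 0.30, and of 36 G2/M genes 35 were higher, with a median of 0.20. Mcm3, a subunit of the replicative helicase, stood at 114.8 against 84.7 CPM, and Kif23, a kinesin of cytokinesis, at 54.9 against 36.7 CPM. In MK 10 of 30 S phase genes and 2 of 36 G2/M genes were higher, with medians of -0.10 and -0.15. Depth moved with this result. Against middle cells reweighted to the members' UMI totals the S phase median was 0.204, and the G2/M median was 0.069, beside 0.06 for all genes.

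Matrix and inflammatory lists had shares of higher genes near that of all genes in Diff_MK. Of 18 matrix and basement membrane genes 13 were higher, with a median of 0.20. Adamts1, a matrix protease, was among the 5 lower ones at 16.3 against 37.3 CPM. In MK 15 of 16 were higher, with a median of 0.13. Of 14 inflammatory genes 11 were higher in members, with a median of 0.35. Cxcl5, a neutrophil chemokine, stood at 1352 against 851.4 CPM (1.59-fold). Of 7 measured genes of the epithelial-mesenchymal list 5 were higher in members, among them Cdh2 (N-cadherin, 30.1 against 16.4 CPM), and all 7 were higher in MK.

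**Figure D3:**
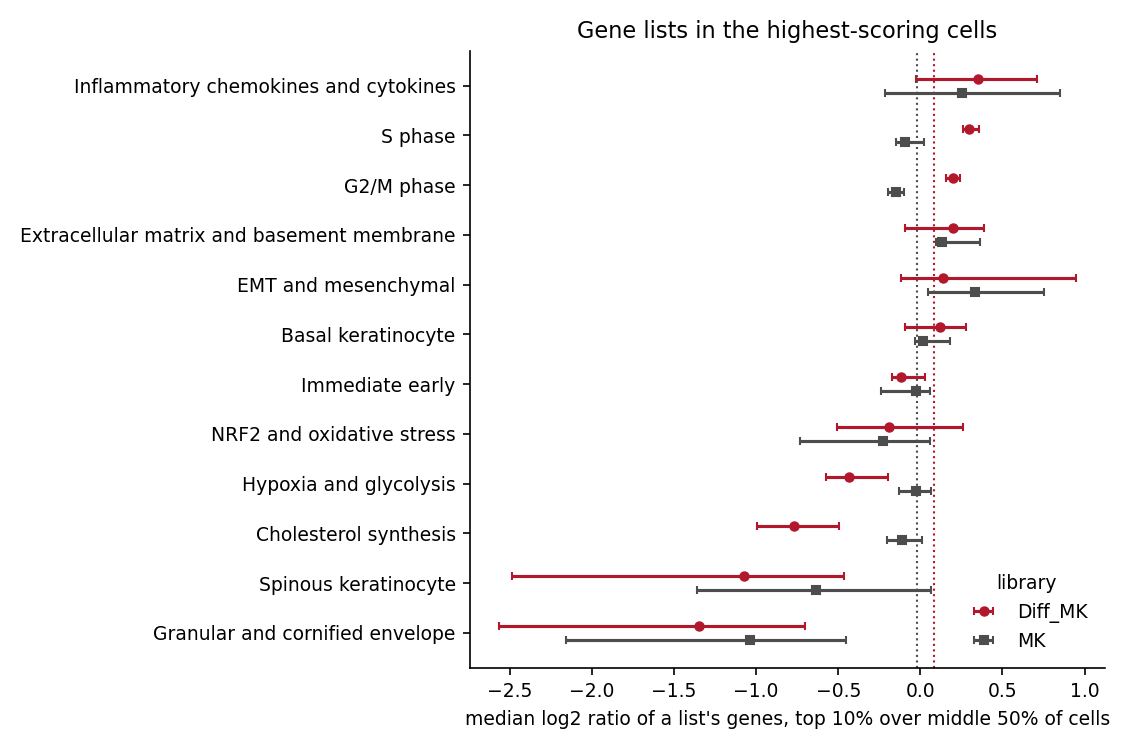
Median log2 ratio of each list's measured genes between the top 10% and the middle 50% of cells by score, in Diff_MK (circles) and MK (squares), with order-statistic intervals over the list's genes and dotted lines at the median of all genes. The granular list is low in both libraries (-1.35 and -1.04), cholesterol synthesis is low in Diff_MK (-0.77) beside -0.11 in MK, and the cell cycle lists lie on opposite sides of 0. Depth is not matched here, and at matched depth the Diff_MK G2/M median came near that of all genes.

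Of the interferon and antigen presentation list 7 of 10 genes were higher in members (median 0.19), a share near the 65.7% of all genes, and 7 of 9 in MK (median 0.36), where 45.2% of all genes were higher. B2m, the light chain of MHC class I, stood at 165.1 against 120.8 CPM (1.37-fold, 1.45-fold in MK), and Ifitm3, an antiviral membrane protein, at 537.1 against 373.7 CPM (1.44-fold, 1.38-fold in MK). Each of the lists of signals and stress responses given next had a smaller share of higher genes than the 65.7% of all genes, and each but the Wnt list had a median under the 0.09 of all genes. Of 19 p53 targets 8 were higher (median -0.04), with Fas at the top and Perp, a desmosomal protein, at 625.1 against 863.7 CPM. Of 6 CDK inhibitor genes 2 were higher (median -0.16), and Cdkn1a, which encodes p21, stood at 201.3 against 236.8 CPM. Of 10 Notch pathway genes 3 were higher (median -0.07), of 11 genes of the EGF receptor and its ligands 4 (median -0.04), of 9 Wnt pathway genes 5 (median 0.15), of 16 NRF2 and oxidative stress genes 5 (median -0.19) and of 20 immediate early genes 7 (median -0.12).

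All 5 measured of 21 fibulin and elastic fibre genes were higher in members by small amounts, where 65.7% of all genes were higher. They ran from Fbln1 (26.1 against 18.8 CPM, 1.39-fold) and Efemp2 (1.36-fold) to Ltbp3 (1.07, 0.933 to 1.23). The intervals of Ltbp1 and Ltbp3 spanned 1, and in MK 3 of 6 measured genes were higher. Of 7 measured stathmin and neuronal cytoskeleton genes 3 were higher, among them Stmn1 (88.5 against 65.9 CPM), the stathmin of dividing cells, while Tubb3, a neuronal tubulin, was lower (27.9 against 39.1 CPM). Stmn4, Dcx, Nefl, Nefm, Elavl4 and Snap25 had 0 UMIs in both sets. Other genes of the same list were present in members, with Map1b at 147.6 against 123.0 CPM, Tubb2b at 140.4 against 104.1, Map2 at 40.3 against 47.5 and Mapt at 12.8 against 14.5. The list summed to 514.7 CPM in members and 464.3 in middle cells. No gene of the MS4A list reached 5 CPM among 14, and 12 had 0 UMIs.

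Most markers of other cell types were at or near 0. The main exceptions were Egfl7 of the endothelial list and Twist2 of the fibroblast list, both higher in members than in middle cells. Of 18 dendritic, Langerhans and other immune genes 11 had no UMI in either set, Ptprc, Cd207 and H2-Aa among them, and the list summed to 4.01 CPM in members and 6.09 in middle cells. Of 11 fibroblast genes 8 had no UMI, Col1a2, Dcn and Pdgfrb among them, and the summed level of 21.3 CPM in members and 17.0 in middle cells was nearly all Twist2. Endothelial genes summed to 32.7 and 24.4 CPM, mostly Egfl7, melanocyte genes to 1.96 and 2.37, and Merkel cell genes to 10.9 and 12.8, with Sox10, Atoh1 and Insm1 at 0. The keratinocyte label held, with 7717 CPM of Krt14 in members.

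Members did not form a cluster of their own. The cells were clustered on their other genes, without the 4 score genes, and members occurred in every cluster at resolution 0.5. At resolution 1.0, 1 cluster of 80 cells held none. Cluster 2, led by Arhgdib, Hmga2 and Pcna, held 220 members, which is 31.8% of members (28.4 to 35.5) beside 8.80% of middle cells. Cluster 5, led by Prl2c2, Sprr2k and Krt17, held 18.7% of members beside 7.84% of middle cells. Cluster 0, led by Akap12, Pclaf and Cxcl1, held 23.4% beside 20.6%, and cluster 4, led by Elovl6, Ddit4 and Gsta4, 11.6% beside 8.74%. Clusters with Krt15, cornification or stress keratin genes among their leading genes had shares of members from 0.420% to 21.2%. In cluster 5, where Krt16 and Sprr2d follow Krt17, 21.2% of cells were members, and in cluster 10 (46 cells, with Krt6b, Sprr2d and Cnfn) 10.9%. Cluster 10 had a median of only 3701 UMIs and 0.096% mitochondrial UMIs, so few molecules set the score of its cells. The share was 4.19% in cluster 3 (with Krt15), 3.05% in cluster 6 (Lor, Tchh) and 1.89% in cluster 9 (53 cells, Lce genes). In cluster 1, led by Lgals7, Prl8a9 and Clu, 7 of 1154 cells were members (0.607%), and in cluster 8, led by Serpinb11, Krt78 and Krt6b, 2 of 476 (0.420%).

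Other sets of genes were scored and cut at 10% in the same way. Of members 19.8% (16.9 to 23.0) were also in the top 10% for Akap12, Krt8 and Fn1, beside 9.06% of middle cells. Of members 1.59% (0.797 to 2.83) were in the top 10% for Krt15, beside 11% of middle cells. For Krt16 and Krt17 together the shares were 12.7% and 9.06%. Among 7920 genes, those whose log levels in 6277 thinned Diff_MK cells were most like the score were Tmsb4x (Pearson correlation 0.390), Krt17 (0.378), Igfbp7 (0.337), Sparc (0.324) and Arhgdib (0.306). In 6838 MK cells they were Tmsb4x (0.322), Gpx4 (0.191), Tmsb10, Cald1 and Cd47, so that only Tmsb4x was among the 5 nearest in both.

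The tag libraries gave a readout that the score did not use. A clone here is the set of cells with the same leading tag, where that tag has 3 counts or more and 2 times those of the next tag or more. Tags were assigned to 451 members (65.3%) and 2417 middle cells (69.9%). The tags of the 3 clones with the highest share of members, the 3 largest clones without a member and the largest clone of the library are printed, because this contrast carries the clonal finding. Each is the deposited sequence 5′ to 3′, 56 bases long, with the 38 bases shared by all 7 in lower case and the bases after them in capitals.
Tag23: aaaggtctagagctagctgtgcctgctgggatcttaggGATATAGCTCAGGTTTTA
Tag26: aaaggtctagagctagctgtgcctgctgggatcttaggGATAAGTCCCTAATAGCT
Tag20: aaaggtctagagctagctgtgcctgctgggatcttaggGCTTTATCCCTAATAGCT
Tag12: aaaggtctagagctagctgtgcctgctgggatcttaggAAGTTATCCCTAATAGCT
Tag14: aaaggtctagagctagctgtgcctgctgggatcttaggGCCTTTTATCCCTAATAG
Tag16: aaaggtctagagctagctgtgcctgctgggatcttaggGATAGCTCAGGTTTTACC
Tag3: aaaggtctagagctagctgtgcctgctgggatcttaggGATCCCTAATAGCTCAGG

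Membership differed widely between clones. Among 50 clones of 20 or more cells, which together held 4379 cells, the share of members ranged from 0 to 52.8% with a median of 8.90%, beside 9.50% of all assigned cells. Tag23 had 19 members among 36 cells (52.8%, 35.5 to 69.6). Tag26 had 11 of 27 (40.7%, 22.4 to 61.2) and Tag20 had 27 of 85 (31.8%, 22.1 to 42.8). These clones made up 3.12% of assigned cells and 12.6% of assigned members. At the other end 9 clones with 580 cells held no member. Tag12 had 0 of 160, which by the floor of 3 cells allows a share of up to 1.88%, and by the Clopper-Pearson interval up to 2.28%. Tag14 had 0 of 125 (up to 2.40% and 2.91%), and Tag16 had 0 of 82, with a floor of 3.66%. The plot of shares by clone draws the Clopper-Pearson limits. Tag3, the largest clone, had 8 of 539 (1.48%, 0.643 to 2.90).

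For 13 of the 50 clones the interval did not overlap that of all cells with another tag, 6 lying above it and 7 below. These intervals were not adjusted for the number of clones. Cells of a clone share an ancestor if their tag arose once, and they are not replicates. In MK the share of the top 10% by the same score ranged from 0 to 26.9% over 46 clones, with 2 intervals free of overlap. The largest MK clones held 280, 137 and 110 cells, beside 539, 498 and 346 in Diff_MK. Small clones have wide intervals, so the numbers of clones apart are not a like comparison of the libraries. Members were thus spread over 67 clones at very different densities.

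**Figure D4:**
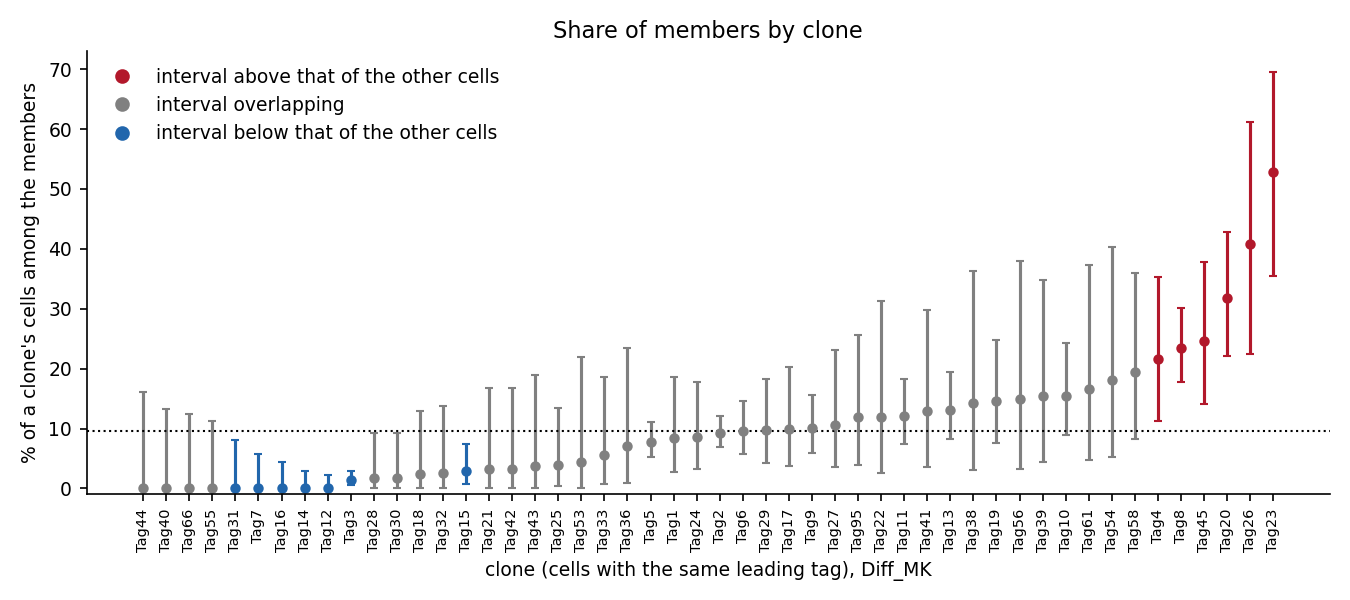
Share of each Diff_MK clone's cells that were members, for the 50 clones of 20 or more cells, with 95% Clopper-Pearson intervals and a dotted line at 9.50%, the share among all assigned cells. Tag23, Tag26 and Tag20 stand highest, and 9 clones are at 0.

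Stmn2 ranged widely between Diff_MK clones. Its level per clone ranged from 0 to 293.7 CPM in Diff_MK with a median of 22.4, and from 20.5 to 98.7 CPM over the MK clones. Tag23 had 293.7 CPM of Stmn2 (UMIs in 75% of cells), Tag26 222.7 and Tag20 167.0. These clones have the highest shares of members. Stmn2 is a gene of the score, so their high levels follow in part from that choice. Tag3 had 15.9 CPM, Tag14 3.21 CPM with UMIs in 6 of 125 cells (4.80%) at a median of 17121 UMIs, and Tag18 no UMI in 41 cells, which allows a share of up to 7.32%. Tag14 and Tag18 lie at the low end of the clones for a gene of the score, so their shares are no separate measure of background. Tmem176a per clone ranged from 12.9 to 130.7 CPM and Efemp1 from 0 to 46.7 CPM, the highest being Tag26. Tag45, where 14 of 57 cells were members (24.6%), had no Efemp1 UMI at all and the highest Krt17 level of the 50 clones (2110 CPM).

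Across the 50 clones the member share and the Krt17 level had a Spearman correlation of 0.734, and those with Sparc and Arhgdib were 0.572 and 0.386. For Krt15 the correlation was 0.029, and for Lgals7 -0.251. The points share library and depth, and the clones differ in size, so these are descriptions. Levels were summed over all cells of a clone, members included. The genes were picked for their ratios in the same members, so a relation in that direction is partly built in. Krt15 was thus far lower in members than in middle cells, with no such relation over clones.

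The members' other genes were therefore read within clones. Krt15, Lgals7, Clu, Defb1 and Gadd45g were lower in members in all 12 clones with 10 or more members and 10 or more middle cells. Tmsb4x, Id1, Igfbp3 and Plscr1 were higher in all 12. Among the other genes of the 12 highest and 12 lowest, Sprr1a, Krt16 and Ctla2a were higher in 2 clones. Akap12 and Arhgdib were lower in 2, and each of the rest had 1 clone the other way. In Tag19 the Krt16 ratio was 3.02 (2.29 to 3.98). Some intervals of single clones spanned 1, such as that of Lgals7 in Tag19 (0.616 to 1.45). No share over all genes is given for these counts. The genes were picked for their ratios in a contrast that includes these same cells. The directions within clones therefore follow in part from that choice and are no separate evidence. The Tmsb4x ratio ranged from 1.47 to 3.11 and that of Krt15 from 0.0142 to 0.837. Krt17 was higher in 11 of the 12, with ratios from 0.381 in Tag6 (54.7 against 143.7 CPM) to 8.66 in Tag2 (861.7 against 99.5 CPM). With middle cells reweighted to the members' clones (439 members of 57 clones), the ratio of Krt17 was 2.17, of Tmsb4x 1.85, of Krt15 0.174 and of Lgals7 0.188. Matching on clone thus lowered the Krt17 ratio and left those of Krt15, Lgals7 and Tmsb4x about as large.

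Members also had more tag counts. The median number of tag counts was 709 in members and 367 in middle cells with an entry in the tag library. Among assigned cells it was 578 and 433, and relative to the RNA UMIs of the same cells the summed tag counts stood at 48095 and 31911 CPM. Within the 12 clones the median was higher in members in 10, with ratios from 0.773 to 3.91. Of tagged members 31.5% (27.9 to 35.3) held more than 1 called tag, beside 21.0% of middle cells (19.5 to 22.5). Cells with high doublet scores were fewer among members, with 4.78% of members and 6.89% of middle cells among the 382 highest. Without cells holding more than 1 called tag, 15 genes were at least 2-fold higher in members and 62 at least 2-fold lower.

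A tag found in both libraries links related cells if the tag arose only once, which was not tested. Tags of the libraries could be paired in 90 cases, 82 of them with identical sequences, and 21 pairs had 20 or more cells in each library. Over these 21 the share of members in Diff_MK and the mean score of the tag's cells in MK had a Pearson correlation of 0.536 and a Spearman correlation of 0.6, and 0.514 (Pearson) without the 2 tags farthest from the median in MK score. Tag20 of Diff_MK, with 31.8% members, matched an MK clone of 64 cells with a mean score of 0.242, within an MK range of 0.134 to 0.296. Tag3, with 1.48% members, matched an MK clone of 280 cells with a mean score of 0.223. With the share of the tag's MK cells in the MK top 10% in place of the mean score, the Pearson correlation was 0.337 and the Spearman correlation 0.355. With the MK level of single genes the Pearson correlation was 0.496 for Tmem176a (0.518 without the 2 tags farthest from the median of that level), 0.394 for Tmem176b (0.185 without them), 0.356 for Efemp1 (0.476) and 0.120 for Stmn2 (-0.240). The Spearman correlations were 0.573, 0.255, 0.439 and -0.048, so the relation with Tmem176b rests on those 2 tags. The MK level of Stmn2 ranged from 38.3 to 75.6 CPM over these tags, and the Diff_MK level from 3.13 to 167.0 CPM. Over these tags the range of Stmn2 was thus narrower in MK. The Diff_MK clones with the most Stmn2, Tag23 and Tag26, are not among them. Tag26 matched an MK clone of only 19 cells, with 70.1 CPM of Stmn2.

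**Figure D5:**
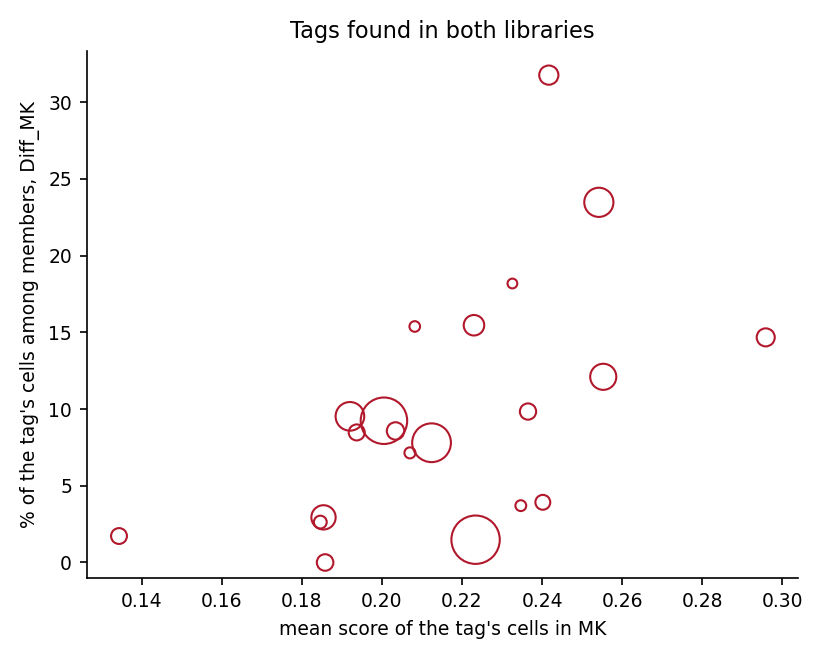
Share of members among a tag's Diff_MK cells against the mean score of the same tag's cells in MK, for the 21 tags with 20 or more cells in both libraries, with circle area in proportion to the number of Diff_MK cells. Shares run from 0 to 31.8% over MK mean scores of 0.134 to 0.296, with wide scatter at any given score.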

How the data were processed

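Droplet RNA libraries (10x 3′ v3) and tag libraries made by a CITE-seq-type protocol were used, per the labels' protocols. The authors deposited whole-number counts, UMIs per gene and cell barcode without normalization, from Cell Ranger 6.1.2 per the file headers, with mm10 per the submitters' processing notes. Tag counts were used as deposited, without the entry for unmapped reads. No source used here names the tag counter or says whether it counted molecules. The members and gene lists were chosen with earlier results of these data known.

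UMIs were summed per set of cells and scaled to CPM. Ratios carry exact conditional binomial intervals and shares Clopper-Pearson intervals (95%). A floor of 3 cells bounds shares of 0. Thinning drew 7500 UMIs per cell and left out 635 Diff_MK and 337 MK cells. Clusters came from scanpy 1.11.5 (2000 variable genes, 30 components, 15 neighbours, Leiden resolution 0.5). Doublets were not removed in the reported values, and leaving out the highest Scrublet scores was an alternative. Matching used tag sequences over the shorter length. Genes were named as the 12 highest and 12 lowest ratios after adding 10 counts, at 50 CPM or more and without ribosomal protein, mitochondrial or predicted genes, the most abundant and most changed members of each of 34 lists, the 5 genes nearest the score and the 3 leading genes of clusters. Mt3, Cdsn, Fabp4, Lor, Sprr2e, Sprr2h, Taf9b and Casp4, and the clones of Tag2, Tag6, Tag18 and Tag45, lie outside this rule and were named after their values were seen. Promoter windows are from RefSeq, where Stmn2 was not matched. Scripts were tested on simulated data.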

Additional observations from a re-analysis of the deposited data

Results flagged for a closer look

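The median log2 ratio of the G2/M list was 0.20 in the Diff_MK library and -0.15 in the MK library, with intervals over genes on opposite sides of 0. The medians of all genes were 0.09 and -0.02. Against middle cells matched on UMI total, the Diff_MK G2/M median came near the 0.06 of all genes. Stmn2, read in cells ranked by the other score genes, was 3.84-fold higher in Diff_MK and at 0.687 of the middle cells in MK. Tmem176a, read in cells ranked by Efemp1 and Stmn2, was 2.28-fold higher in Diff_MK and at 0.888 in MK, and Tmem176b was 2.37-fold higher and at 0.908. Most middle cells of that ranking had a score of 0 and were ordered by barcode, to a larger extent in Diff_MK. The score genes were picked with Diff_MK results known, so their higher values there follow in part from that choice. These contrasts were picked out because the libraries moved in opposite directions. With 1 library per group the differences were not tested.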

How the results depend on the processing

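No paired analysis was possible because each group has 1 library. The 24 named genes kept their direction under all 16 alternatives, and none of the list medians examined changed sign. The 13 higher and 65 lower Diff_MK genes became 304 and 741 where every gene with 10 counts was tested (261 and 660 in MK, from 10 and 18). Higher genes numbered 23 with cells weighted equally, 32 for the top 5% and 20 without the Tmem176 genes in the score. In MK they numbered 20 for the top 5%, 6 for the top 20%, 18 without Stmn2 in the score and 5 without the Tmem176 genes, where lower genes numbered 50. The G2/M median was 0.332 with equal weights, 0.112 after scaling by the median ratio, 0.275 against all other cells, 0.069 at matched depth, 0.247 without high doublet scores, 0.253 without Efemp1, 0.255 without Stmn2, 0.294 without the Tmem176 genes and 0.137 without cells of several tags. The S phase median was 0.44, 0.214, 0.204 and 0.227 with equal weights, median scaling, matched depth and no cells of several tags. The stress keratin median was -1.91 without high doublet scores. Clones apart numbered 7 for the top 5% and 21 for the top 20%, beside 13. At resolution 1.0 the cluster with the most members held 23.7% of them. The share of higher genes among 2-fold genes in Diff_MK was 16.7%, and 27.8%, 29.1% and 26.3% for the top 5%, the 10-count minimum and without the Tmem176 genes. Depth limits genes below 10 CPM. Clone matching and the removal of clones or cells of several tags were chosen after seeing the data.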
